A study of Arabidopsis thaliana with 12 samples.

Results

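Young rosette leaves (leaf 12, L12) were compared with old rosette leaves (leaf 7, L7) of mock-treated Arabidopsis thaliana, to describe how leaf age is reflected in the transcriptome. L12 and L7 differ in their position on the rosette as well as in age, so effects of position and age cannot be told apart. The libraries were chosen by their labels, as mock-treated and as L12 or L7, and make up 6 of the 12 RNA-seq libraries of the series, with 3 of young and 3 of old leaves. All plants were of the wild-type accession Col-0 and 4 to 5 weeks old. The mock spray contained 0.5% ethanol and Tween 20, and leaves were collected 48 h later. The other 6 libraries came from L12 and L7 leaves sprayed with 500 µM abscisic acid (ABA) in the same ethanol concentration. They share no library with the mock-treated set, though all 12 were fitted together. They are used as a second look at the same leaf age difference. The labels call both leaf positions fully expanded, and state neither the number of plants in a sample nor whether L12 and L7 came from the same plants. The experiment was repeated 3 times and libraries with the same replicate number were treated as pairs. Whole leaves were sequenced, so more cells of a type and more RNA per cell cannot be told apart.

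A rosette leaf grows first by cell division and then by cell expansion, and division stops from the tip of the blade towards its base. Stomatal precursors keep dividing after other epidermal cells have stopped, and chlorophyll synthesis accompanies the build-up of chloroplasts. In ageing leaves, NAC transcription factors and ABA promote chlorophyll breakdown and the export of sugars and nitrogen to younger organs.

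In total, 1246 genes were higher and 1482 were lower in young than in old mock-treated leaves, out of 18291 genes tested. These calls required an adjusted p below 0.01 and a log2 change beyond 1, that is, more than 2-fold, in the quasi-likelihood test of edgeR. All adjusted p-values below come from that test, corrected by the Benjamini-Hochberg method. The background is thus 6.81% of tested genes higher and 8.10% lower, and the counts of each gene list are read against these shares. Every called gene changed in its direction in all 3 same-numbered pairs, which a test with the replicate number as block favours. Young libraries were all above old libraries for 14.1% of tested genes and all below them for 17.3%, which are the shares behind each statement below that groups did not overlap. Among the lists with 10 or more tested genes, the largest shares of genes higher in young leaves were in DNA replication, chlorophyll synthesis, mitosis and stomatal development, and the largest shares lower were in aliphatic glucosinolate synthesis, ABA response, chlorophyll breakdown and vegetative phase change. Smaller shares above the background are given with each list. Lists and members were chosen with earlier results of these data known, so these shares are descriptions only. The plot of log2 changes by gene list gives all members. Levels of single genes are given as counts scaled to the TMM-normalised library size (CPM) and divided by transcript length in kilobases (CPM/kb), in the order of replicates 1, 2 and 3.

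**Figure D1:**
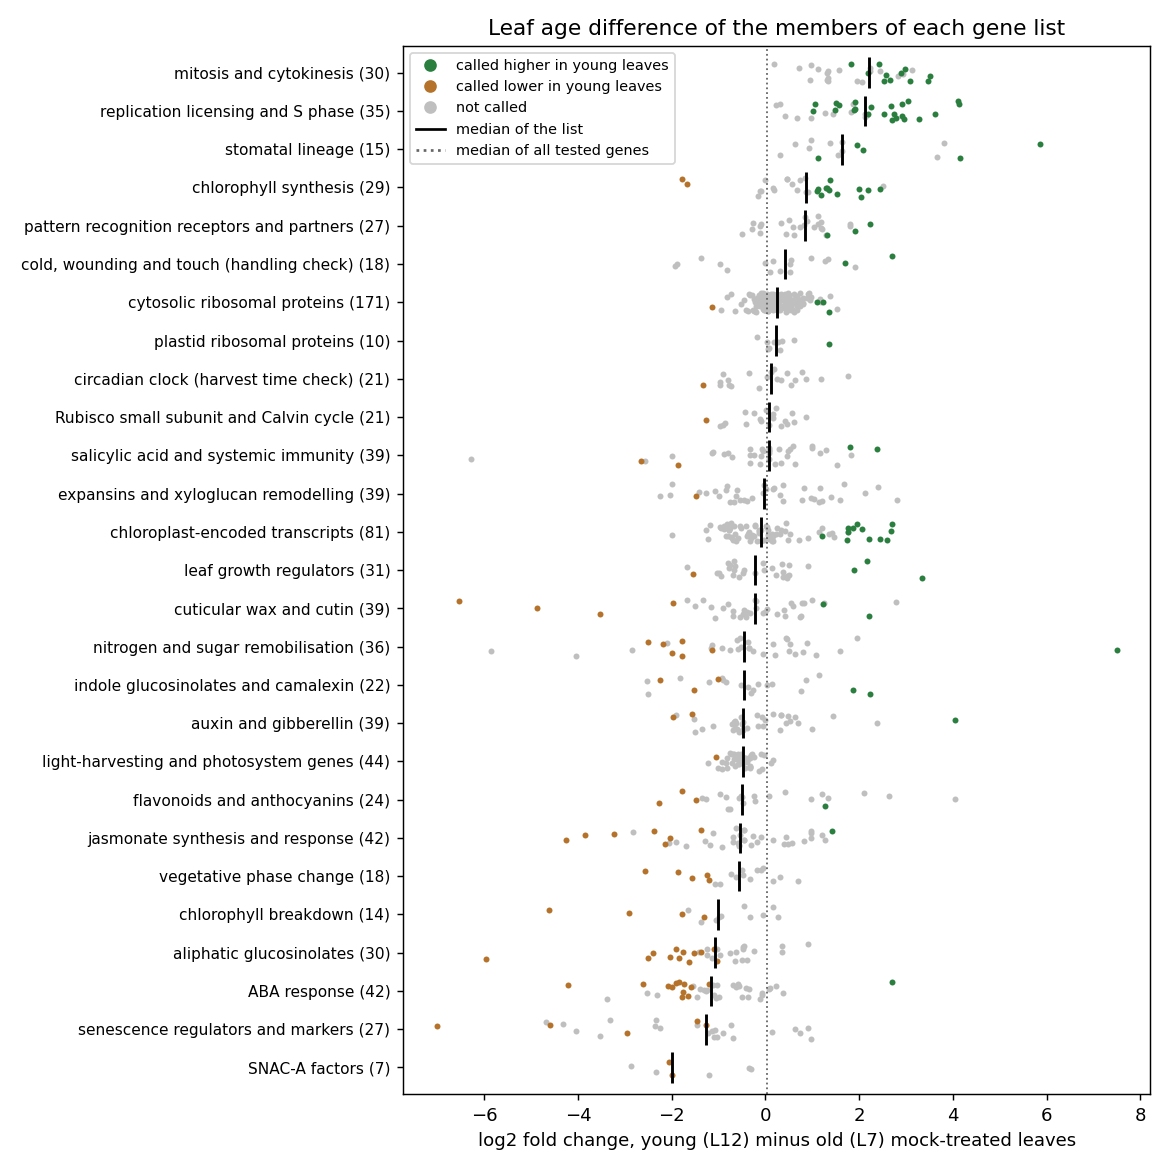
Log2 fold change of young (L12) minus old (L7) mock-treated leaves (x axis) for the tested members of each gene list (y axis, number tested in brackets). Each point is a gene, the black bar is the median of the list and the dotted line is the median of all 18291 tested genes, 0.04. The cell division lists lie on the right, with medians of 2.1 and 2.2, and the SNAC-A, senescence and ABA response lists on the left, with medians of -1.99, -1.27 and -1.17.

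Depth was 18261275 to 21485394 counts on genes in young-leaf libraries and 11811137 to 20383398 in old-leaf libraries. Fold changes followed transcript length, with a Spearman rho of 0.535 across 18179 genes with a known length (0.335, 0.608 and 0.430 in pairs 1, 2 and 3). Genes are not independent replicates, so no p is attached to this relation. When these genes were divided into 5 equal classes by transcript length, the class with the longest transcripts (2556 to 16593 nt) had 649 genes higher and 35 lower in young leaves. The class with the shortest (74 to 1155 nt) had 46 higher and 642 lower. The longest class took 10.7%, 18.4% and 5.96% of counts in young leaves, against 7.96%, 6.29% and 3.56% in old leaves, so that young was above old in each pair, while the groups overlapped. An adjustment of each library for length and GC content left 811 genes higher (4.43%) and 1086 lower (5.94%), with 1347 calls shared with the unadjusted test and a rho of 0.026. Whether the length relation is biological or comes from the RNA or the libraries was not tested, and the text says where this adjustment ends the call of a named gene.

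**Figure D2:**
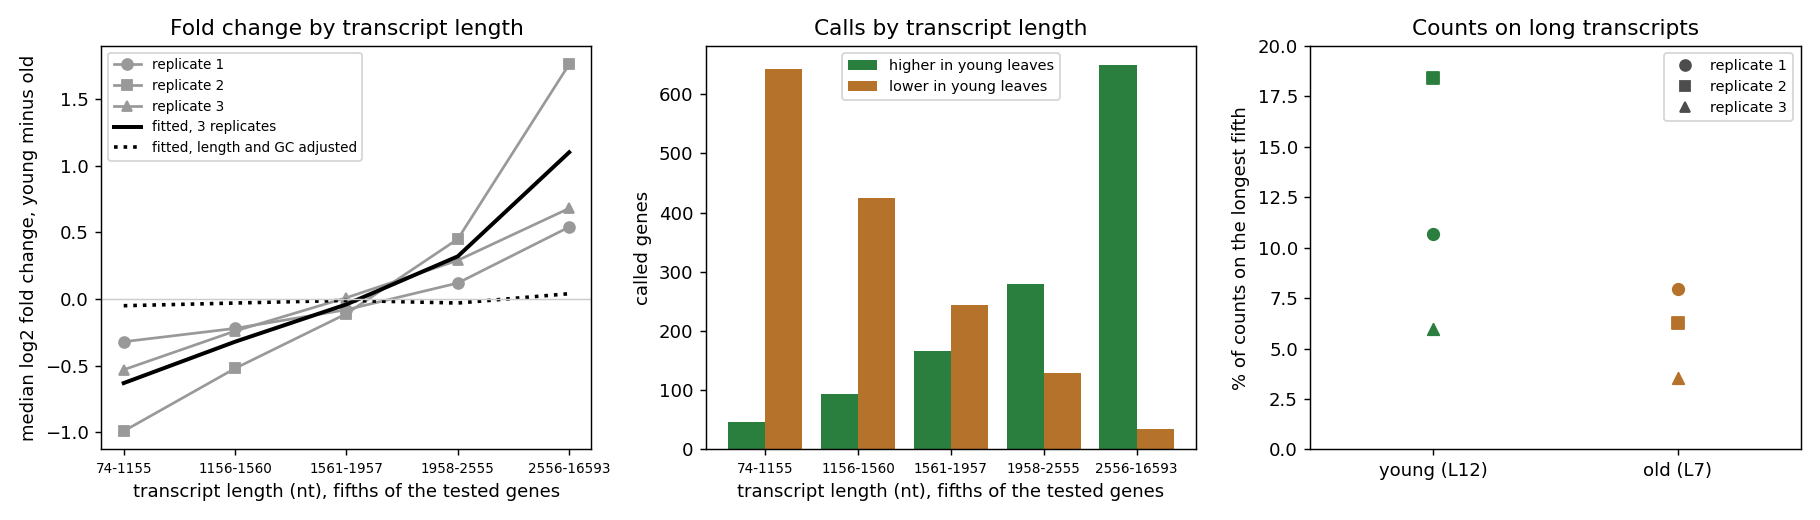
Left, median log2 fold change of young minus old leaves in 5 classes of the tested genes by transcript length (nt), per replicate pair (grey), from the fit (black) and after adjustment for length and GC content (dotted). Middle, number of called genes per class, with 649 higher among the longest and 642 lower among the shortest transcripts. Right, percentage of the counts of each mock-treated library on the longest class, which is higher in the young leaf of every pair.

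The number of calls depended on the replicates. With all libraries of replicate 3 left out, no gene was called in either direction by edgeR (8096 genes had an unadjusted p below 0.05 and the smallest adjusted p was 0.0113). Without replicate 1 there were 1 and 8 calls, and without replicate 2 there were 129 and 271. Without the replicate block, 23 genes were higher and 76 were lower, all 99 of them among the calls of the paired fit. DESeq2 called 2571 and 2122. Replicate 3 was the lowest of the young libraries for 1066 of the 1246 genes called higher, and the highest of the old libraries for 1144 of the 1482 called lower.

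The minichromosome maintenance proteins MCM2 to MCM7 form the ring-shaped helicase that is loaded on replication origins before S phase, and all 6 genes were higher in young leaves. MCM4 (AT2G16440) had 3.93, 5.13 and 1.84 CPM/kb in young leaves, against 0.82, 0.73 and 0.308 CPM/kb in old leaves (log2 change 2.52 ± 0.29, SE, adjusted p = 0.000839). MCM5 (AT2G07690) had 4.69, 6.66 and 2.04 CPM/kb in young leaves, against 0.923, 0.695 and 0.388 CPM/kb in old leaves (2.69 ± 0.37, adjusted p = 0.00157). For both genes the lowest young library lay above the highest old library. The log2 changes of MCM2, MCM3, MCM6 and MCM7 were 3.61, 3.28, 4.1 and 2.79.

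The promoters of several of these genes share a short motif and are shown for that reason. E2F transcription factors, which switch on S-phase genes in plants and animals, bind sites such as TTTCCCGC, TTTGGCGC, TTTCGCGC and TTTGCCGC. These 4 words were searched on both strands in the window from 250 bases before to 50 bases after each annotated gene start. They were present in 13 of 35 tested genes of the replication list (37.1%), of which 12 were called higher and 1 was not called, and in 1.76% of all 27443 promoters. Among genes higher in young leaves 5.69% of promoters held such a word, against 1.14% among genes lower in young leaves and 1.88% among all tested genes. A match is a description of the sequence and not evidence of binding. The stretches below are the 80 bases before the gene start in TAIR10.1 (RefSeq annotation), on the gene's strand, 5′ to 3′, with the matched words in capitals.
MCM2, chr1:16970134-16970213, plus strand: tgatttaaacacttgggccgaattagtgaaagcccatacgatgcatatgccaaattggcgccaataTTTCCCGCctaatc
MCM4, chr2:7130730-7130809, minus strand: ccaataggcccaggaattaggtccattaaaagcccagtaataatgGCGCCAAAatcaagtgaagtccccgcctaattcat
MCM5, chr2:3527501-3527580, minus strand: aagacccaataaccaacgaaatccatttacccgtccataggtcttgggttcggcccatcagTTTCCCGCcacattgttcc
MCM6, chr5:18010668-18010747, minus strand: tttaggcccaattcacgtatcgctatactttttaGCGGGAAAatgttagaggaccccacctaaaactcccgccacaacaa
ICU2, chr5:26776873-26776952, plus strand: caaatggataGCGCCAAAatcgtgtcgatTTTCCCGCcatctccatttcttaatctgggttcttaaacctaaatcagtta
FAS2, chr5:25833085-25833164, plus strand: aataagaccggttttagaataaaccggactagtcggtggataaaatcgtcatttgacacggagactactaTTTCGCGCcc
The words lie 10 to 70 bases before the gene start, and ICU2 holds a pair of them.

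ICU2 encodes the catalytic subunit of DNA polymerase alpha, and POLA2 (AT1G67630) the second subunit of the same enzyme, which primes new DNA strands. ICU2 (AT5G67100) had 1.38, 4.36 and 0.494 CPM/kb in young leaves, against 0.128, 0.0761 and 0.0832 CPM/kb in old leaves (4.12 ± 0.65, adjusted p = 0.00231). POLA2 had 3.53, 5.32 and 2.28 CPM/kb in young leaves, against 0.572, 0.989 and 0.266 CPM/kb in old leaves (2.67 ± 0.33, adjusted p = 0.00118). RNR1 (AT2G21790) encodes the large subunit of ribonucleotide reductase, which makes the deoxyribonucleotides for DNA synthesis. It had 13, 19.7 and 6.10 CPM/kb in young leaves, against 2.28, 1.91 and 0.776 CPM/kb in old leaves (2.96 ± 0.36, adjusted p = 0.00118). In none of these genes did the groups overlap. FAS2, a subunit of the chromatin assembly factor that places histones on new DNA, had a log2 change of 2.74.

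Of the 35 tested members of the replication licensing and S-phase list, 23 were higher, 0 were lower and 12 were not called, and the median log2 change was 2.1, beside 0.04 over all tested genes. After adjustment for length and GC content, 21 were higher and the median was 2.00. Leaving out replicate 3 of the old leaves gave 3 higher members, and leaving out that of the young leaves 19.

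Genes of mitosis and cytokinesis moved in the same direction. Of 30 tested members 11 were higher and 0 lower, with a median log2 change of 2.2. CYCA2;3 (AT1G15570), an A-type cyclin, had 2.62, 3.61 and 1.90 CPM/kb in young leaves, against 0.329, 0.486 and 0.275 CPM/kb in old leaves (2.90 ± 0.37, adjusted p = 0.00122). CDKB2;1 (AT1G76540), a plant-specific mitotic cyclin-dependent kinase, had 5.04, 8.85 and 4.29 CPM/kb in young leaves, against 1.67, 2.5 and 1.06 CPM/kb in old leaves (1.82 ± 0.35, adjusted p = 0.00428). The groups of both genes were apart. CDKB1;2, of the same kinase class, changed by 2.42 on the log2 scale, and CDC20.2, an activator of the anaphase-promoting complex, by 2.65. None of the 30 promoters held an E2F word. The AACGG core of the mitosis-specific activator element, searched on both strands, was in 60.0% of them and in 24.7% of all promoters. This short core was in 31.9% of promoters of genes higher and 24.2% of genes lower in young leaves. It was also in 47.6% of the promoters of the ABA response list. The length and GC adjustment gave 12 higher members, and leaving out replicate 3 of the old leaves 1.

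Meristem transcripts were near or at 0. STM, KNAT1, CLV3 and KNAT2, which define the shoot meristem, had 0 counts in all 6 libraries, and none of the 6 meristem markers reached the expression filter. KNAT6 had 12, 13 and 10 counts in young-leaf libraries, against 2, 5 and 4 counts in old-leaf libraries. Flower markers summed to at most 1.46 CPM in young leaves and 2.01 CPM in old leaves. Mesophyll markers summed to 29335 to 54172 CPM in young leaves, against 27639 to 50522 CPM in old leaves, and these ranges overlapped.

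Among leaf growth regulators, 3 of 31 tested genes were higher and 1 was lower, with a median log2 change of -0.22 that turned to 0.14 when libraries were scaled by size only. ANT (AT4G37750), an AP2-type factor that prolongs cell division in organs, had 2.94, 2.91 and 1.39 CPM/kb in young leaves, against 0.655, 0.664 and 0.298 CPM/kb in old leaves (2.17 ± 0.33, adjusted p = 0.00212). AIL6, a relative of ANT, and ARGOS, an auxin-induced organ size gene, changed by 1.88 and 3.34. The lower gene was TCP14 (AT3G47620), a transcription factor that acts on cell proliferation. It had 33.9, 19.9 and 58.2 CPM/kb in young leaves, against 70.6, 92.2 and 154 CPM/kb in old leaves (-1.55 ± 0.28, adjusted p = 0.0035). AIL6 was not called with the length and GC adjustment (adjusted p = 0.0441), and no member was called without replicate 3 of the old leaves.

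Stomatal lineage genes were higher in young leaves for 5 of 15 tested members, and lower for none, with a median log2 change of 1.64. SPCH (AT5G53210), the bHLH factor that starts the stomatal lineage, had 31, 51 and 3 counts in young-leaf libraries, against 0, 2 and 0 counts in old-leaf libraries, a ratio per normalised library size of 25.2 with a 95% counting interval of 6.75 to 211.1. SDD1 (AT1G04110), a subtilisin-like protease that limits stomatal density, had 147, 209 and 25 counts in young leaves, against 0, 3 and 0 counts in old leaves, a ratio of 75.2 with an interval of 25.5 to 366.1. These intervals cover counting error only. The receptor kinase ER had 9.5, 18.1 and 5.88 CPM/kb in young leaves, against 4.53, 2.87 and 1.35 CPM/kb in old leaves (1.96 ± 0.31, adjusted p = 0.00225), and the groups did not overlap. ER and its relative ERL2 have long transcripts of 3985 and 3607 nt, and neither was called with the length and GC adjustment (adjusted p = 0.0208 and 0.0483). The list then held 4 higher members, and 2 when replicate 3 of the old leaves was left out.

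Markers of differentiated cell types were called in some lists. Guard cell markers summed to 52.9 to 97.9 CPM in young leaves, against 23.5 to 45.2 CPM in old leaves, with 1 of 7 called higher, and 0 of 7 with the length and GC adjustment, where their median log2 change was 0.56 and not 1.23. Of the epidermis markers 2 of 4 were higher, with a median of 1.09, and 1 of 4 with the adjustment, with a median of 0.15. Of the xylem and secondary wall markers 5 of 7 were higher, or 2 of 7 with the length and GC adjustment, and their sum was 52.3 to 117.3 CPM in young leaves, against 29.9 to 40 CPM in old leaves. PDF1 (AT2G42840), a gene of the epidermal outer cell layer, had 10.0, 27.1 and 3.04 CPM/kb in young leaves, against 0, 1.57 and 0.0573 CPM/kb in old leaves (4.96 ± 0.72, adjusted p = 0.00183). None of the mesophyll (5 tested), trichome (3) and root markers (4) was called. No epidermis, guard cell or xylem marker was called without replicate 3 of the old leaves. The part of these markers in the other results was not tested.

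Several steps of chlorophyll synthesis were higher in young leaves. Of 29 tested members 12 were higher and 2 were lower, with a median log2 change of 0.86, and 11 and 2 were called with the length and GC adjustment. CHLH (AT5G13630), the large subunit of magnesium chelatase, which is the first enzyme of the chlorophyll branch, had 162.3, 298.1 and 68.6 CPM/kb in young leaves, against 46.8, 30.9 and 16.0 CPM/kb in old leaves (2.44 ± 0.32, adjusted p = 0.00139). HEME1, a uroporphyrinogen decarboxylase of the common tetrapyrrole pathway, had 134.5, 118.2 and 100.2 CPM/kb in young leaves, against 50.7, 51.2 and 39.4 CPM/kb in old leaves (1.32 ± 0.17, adjusted p = 0.00139). CHLD, another chelatase subunit, and SIG2, a sigma factor of the plastid RNA polymerase, changed by 1.3 and 1.99, and CHLD was below the fold limit with the length and GC adjustment (0.69). In all 4 genes the lowest young library was above the highest old one. The 2 lower members were the transcription factors GLK1 and GLK2, which activate photosynthesis genes, with log2 changes of -1.67 (adjusted p = 0.00285) and -1.79 (adjusted p = 0.00352). Without replicate 3 of the old leaves, 1 member of the list was higher and none was lower.

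Chloroplast-encoded transcripts were higher in young leaves for 12 of 81 tested loci and lower for none. Of these 12 loci, 8 carry consecutive numbers from ATCG00740 to ATCG00810, and 3 others run from ATCG01110 to ATCG01130. ATCG00770 had 70.3, 152.3 and 21.1 normalised CPM in young leaves, against 12.4, 13.1 and 6.50 CPM in old leaves (2.69 ± 0.43, adjusted p = 0.00247). ATCG01130 had 681, 903.3 and 309.7 CPM in young leaves, against 170.3, 281.6 and 107.4 CPM in old leaves (1.74 ± 0.24, adjusted p = 0.00167). The groups did not overlap in either case. Without replicate 3 of the old leaves none of the 81 was called, and the list's median of -0.10 was then 0.13. Chloroplast loci were not matched to a transcript length here, so levels are not per length and carry no length adjustment. The libraries were enriched for polyadenylated RNA, so these levels also follow that enrichment, and chloroplast-encoded counts made up 0.489% to 0.665% of a young-leaf library and 0.373% to 0.565% of an old-leaf library.

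The light-harvesting and photosystem list did not move beyond the test. Of 44 tested genes 0 were higher and 1 was lower, LHCB7, with a log2 change of -1.06, and the median was -0.49. LHCB1.5 (AT2G34420), a major antenna protein, had 15876, 11721 and 34318 CPM/kb in young leaves, against 27275, 33779 and 60701 CPM/kb in old leaves (-1.02 ± 0.31, adjusted p = 0.0259), and these groups overlapped. With the length and GC adjustment the median of the list was -0.01 and no member was called. In the Rubisco and Calvin cycle list 1 of 21 was lower (CP12-2, -1.26 ± 0.25, adjusted p = 0.00484) and none with the adjustment.

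Genes of chlorophyll breakdown were lower in young leaves for 4 of 14 tested members and higher for none, with a median log2 change of -1.02. NYE2 (AT4G11910), a homologue of the magnesium dechelatase that starts chlorophyll degradation, had 0.395, 0.371 and 0.280 CPM/kb in young leaves, against 7.95, 8.83 and 11 CPM/kb in old leaves (-4.62 ± 0.45, adjusted p = 0.00049). PAO (AT3G44880), the oxygenase that opens the chlorophyll ring, had 27.1, 25.2 and 40.9 CPM/kb in young leaves, against 71.1, 61.0 and 98.6 CPM/kb in old leaves (-1.31 ± 0.22, adjusted p = 0.00271). Old leaves were above young leaves in every library of both genes. CYP89A9, which modifies chlorophyll catabolites, changed by -2.91, and the chlorophyllase gene CLH2 by -1.79, and CLH2 levels overlapped, with 4.21 CPM/kb in old-leaf replicate 2. Adjusted for length and GC content, 5 members were lower, and without replicate 3 of the old leaves 1 was.

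Senescence regulators and markers were lower in young leaves for 5 of 27 tested members, and higher for none, with a median log2 change of -1.27. NAC046 (AT3G04060), which promotes chlorophyll degradation, had 0.678, 0.690 and 1.82 CPM/kb in young leaves, against 6.69, 5.19 and 11.9 CPM/kb in old leaves (-2.95 ± 0.33, adjusted p = 0.000798). NAC059 (AT3G29035), a senescence activator also known as ORS1, had 2, 3 and 0 counts in young-leaf libraries, against 267, 29 and 228 counts in old-leaf libraries (-7.01 ± 1.13, adjusted p = 0.00245). NAC092, also called ORE1, changed by -4.60 (adjusted p = 0.00784). PED1, a peroxisomal thiolase of fatty acid breakdown, had 89.7, 88.3 and 136.4 CPM/kb in young leaves, against 209.9, 365.2 and 309.6 CPM/kb in old leaves (-1.47 ± 0.27, adjusted p = 0.00377), and SAG18 changed by -1.27. None of these genes overlapped between the groups. With the length and GC adjustment 3 members were lower, without NAC092 (adjusted p = 0.0143) and SAG18 (log2 change -0.96). Without replicate 3 of the old leaves 1 was lower.

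In the nitrogen and sugar remobilisation list 6 of 36 tested members were lower and 1 was higher, with a median of -0.45. SWEET11 (AT3G48740), a sucrose exporter of phloem parenchyma, had 25.6, 39.2 and 38.6 CPM/kb in young leaves, against 98.3, 204.3 and 111.7 CPM/kb in old leaves (-1.99 ± 0.27, adjusted p = 0.00145). NPF2.13 (AT1G69870), a nitrate transporter known for remobilising nitrate from older leaves, had 21.1, 26.5 and 32.7 CPM/kb in young leaves, against 87.0, 122.2 and 67.4 CPM/kb in old leaves (-1.79 ± 0.29, adjusted p = 0.00244). In both genes the groups were apart. SWEET13 changed by -2.19 and EXL4 by -2.51, and 3 members were lower without replicate 3 of the old leaves. The higher member was SPS3F, a sucrose phosphate synthase gene, with 28, 79 and 1 counts in young leaves, against 0, 0 and 0 counts in old leaves, at least 21.3-fold higher against a floor of 3 counts over the 3 old libraries, and it was not called with the length and GC adjustment (adjusted p = 0.0119). Of the phloem markers 1 of 5 was lower (SWEET11, which both lists hold). The sucrose exporter gene SWEET12 (-0.93, adjusted p = 0.0641) and the sucrose loader gene SUC2 (-0.35, adjusted p = 0.248) did not pass the test. A single marker, AHA3, had a positive log2 change (1.07), and it was not called. AHA3 had 3261, 6087 and 1303 counts in young-leaf libraries, against 1929, 564 and 588 counts in old-leaf libraries. The markers' sum was 413.5 to 562.1 CPM in young leaves, against 547.3 to 791.2 CPM in old leaves.

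Regulators of vegetative phase change and flowering were lower in young leaves for 5 of 18 tested members and higher for none, with a median log2 change of -0.56. SPL4 (AT1G53160), an SBP-box factor repressed by miR156, had 2.46, 4.80 and 6.12 CPM/kb in young leaves, against 17.3, 38.5 and 23.2 CPM/kb in old leaves (-2.57 ± 0.31, adjusted p = 0.00106). Other miR156-controlled members did not pass the test, with log2 changes of -0.09 for SPL3, -0.50 for SPL5 and 0.15 for SPL9. SOC1 (AT2G45660), a MADS-box promoter of flowering, had 35.0, 26.3 and 77.4 CPM/kb in young leaves, against 101.5, 85.6 and 217 CPM/kb in old leaves (-1.57 ± 0.29, adjusted p = 0.00393). AP2 and TOE1, which delay flowering, changed by -1.25 and -1.20, and FLC, a repressor of FT and SOC1, by -1.87. The 5 lower members thus include promoters and repressors of flowering. Groups of SPL4, SOC1, AP2 and FLC did not overlap and those of TOE1 did. The florigen gene FT (AT1G65480), which is outside the list, had 0, 0 and 0.0751 CPM/kb in young leaves, against 0.689, 1.81 and 0.987 CPM/kb in old leaves (-5.54 ± 0.83, adjusted p = 0.00197). SOC1 (adjusted p = 0.0191) and FLC (adjusted p = 0.039) were not called with the length and GC adjustment, which called 4 lower members. Leaving out replicate 3 of the old leaves left 1 lower member, and of the young leaves 2.

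Several ABA-responsive genes were lower in young leaves. Of 42 tested members 12 were lower and 1 was higher, with a median log2 change of -1.17. RD22 (AT5G25610), a dehydration-induced gene, had 327.8, 179.7 and 533.1 CPM/kb in young leaves, against 1397, 1308 and 1342 CPM/kb in old leaves (-2.07 ± 0.30, adjusted p = 0.0018). HB6 (AT2G22430), a homeodomain factor of the ABA pathway, had 138.7, 110.1 and 171 CPM/kb in young leaves, against 472.3, 438.6 and 701.7 CPM/kb in old leaves (-1.91 ± 0.32, adjusted p = 0.00287). The old leaves were higher in every library. GOLS1, which makes galactinol for raffinose synthesis, and COR413IM1, a chloroplast membrane protein of cold acclimation, changed by -1.84 and -1.58, and the dehydrin gene RAB18 by -1.78. The higher member was CYP707A3 (AT5G45340), which degrades ABA, with 40.7, 23.4 and 147.4 CPM/kb in young leaves, against 4.34, 5.66 and 20.3 CPM/kb in old leaves (2.71 ± 0.55, adjusted p = 0.00535). The length and GC adjustment left 9 lower members, without RAB18 (adjusted p = 0.0127). Without replicate 3 of the old leaves 2 were lower, and without replicate 3 of the young leaves 11.

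The SNAC-A factors are NAC proteins induced by ABA, and 2 of 7 were lower in young leaves, with a median log2 change of -1.99. NAC032 (AT1G77450) had 2.57, 1.90 and 2.96 CPM/kb in young leaves, against 7.49, 6.11 and 21.1 CPM/kb in old leaves (-2.05 ± 0.42, adjusted p = 0.00546). RD26, or NAC072, had 12.5, 9.29 and 17.8 CPM/kb in young leaves, against 52.7, 28.7 and 75.4 CPM/kb in old leaves (-1.99 ± 0.44, adjusted p = 0.00758). Both were lower in young leaves without overlap. NAC019 and NAC055 had log2 changes of -2.34 (adjusted p = 0.0221) and -2.86 (adjusted p = 0.0356) and were not called. Without replicate 3 of the old leaves, or of the young leaves, no SNAC-A gene was called. In ABA-treated leaves the list's median log2 change of young minus old was -0.29.

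Promoters of some of these genes hold the ABA-responsive element (ABRE), which AREB transcription factors bind. The words ACGTGGC and ACGTGTC were searched on both strands of the same window. They were present in 26.2% of the 42 ABA response genes, in 3 of the 7 SNAC-A genes and in 7.64% of all promoters. Such a word was in 124 of 1230 promoters of genes higher in young leaves and 173 of 1407 (12.3%) of genes lower. The share among all tested genes was 9.29%. The words were also in 57.1% of the 21 clock promoters and 43.2% of the 44 light-harvesting and photosystem promoters. In both lists 0 genes were higher and 1 was lower, so a high share was not limited to lists lower in young leaves. The 60-base stretches below, with matched words in capitals, are from genes lower in young leaves (TAIR10.1, gene strand, 5′ to 3′).
NYE2, chr4:7156010-7156069, plus strand: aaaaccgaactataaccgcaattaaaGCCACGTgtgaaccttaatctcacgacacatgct
RAB18, chr5:26519528-26519587, minus strand: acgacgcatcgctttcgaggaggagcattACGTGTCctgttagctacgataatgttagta
NAC032, chr1:29099759-29099818, plus strand: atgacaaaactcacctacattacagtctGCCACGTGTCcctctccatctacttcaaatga
The stretch of NAC032 holds a pair of words that overlap on opposite strands.

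**Figure D3:**
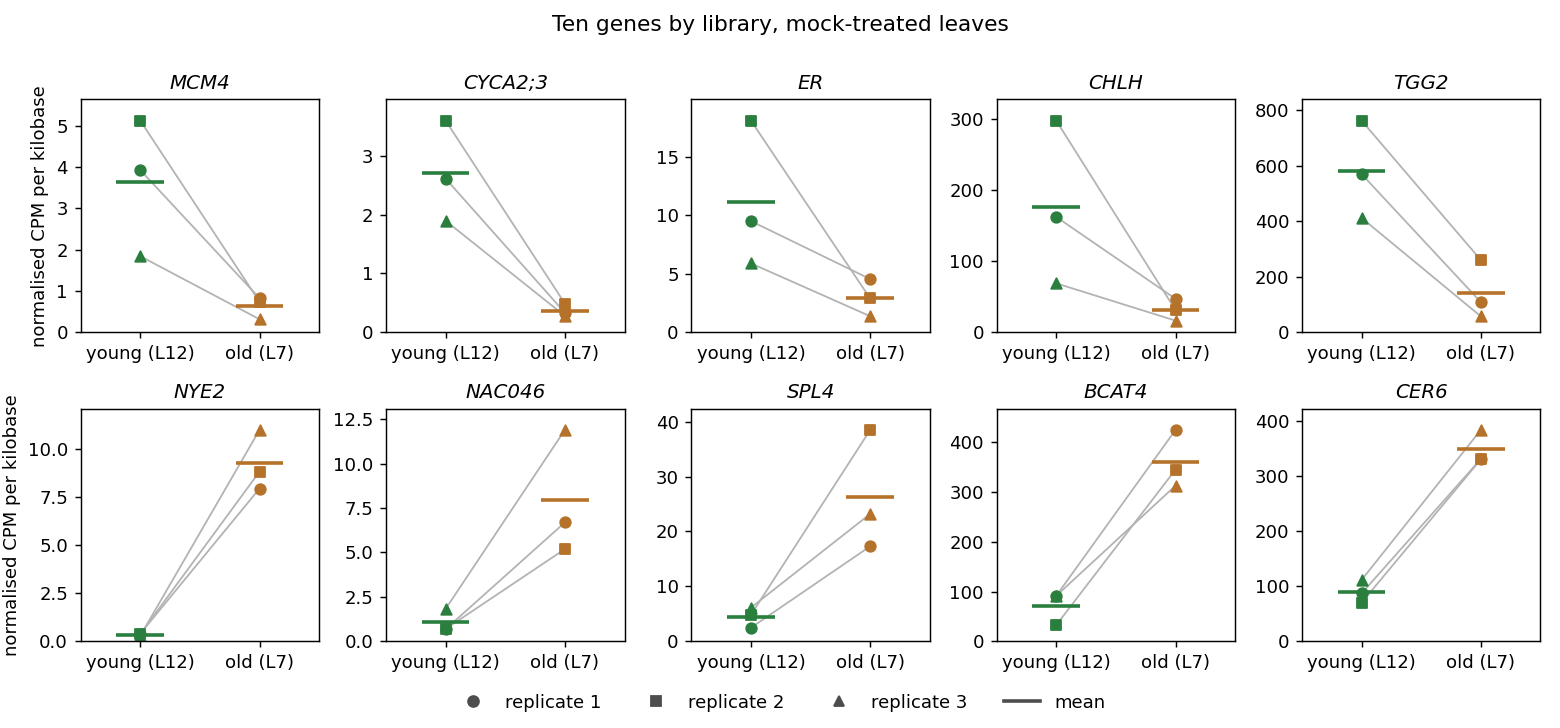
Normalised CPM per kilobase (y axis, starting at 0 and scaled per gene) of 10 genes in each mock-treated library, young (L12) on the left and old (L7) on the right. Grey lines join same-numbered libraries, symbols mark the replicate and horizontal bars the mean of 3. The upper row (MCM4, CYCA2;3, ER, CHLH, TGG2) is higher in young leaves and the lower row (NYE2, NAC046, SPL4, BCAT4, CER6) is lower, with no overlap between the groups.

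Aliphatic glucosinolates are sulfur-rich defence compounds made from chain-elongated methionine, and 12 of 30 tested genes of their synthesis were lower in young leaves and 0 were higher, with a median log2 change of -1.07. BCAT4 (AT3G19710), the aminotransferase that starts methionine chain elongation, had 91.5, 32.6 and 91.5 CPM/kb in young leaves, against 425.3, 345.5 and 313.1 CPM/kb in old leaves (-2.5 ± 0.36, adjusted p = 0.0018). MAM3 (AT5G23020), a methylthioalkylmalate synthase for the long side chains, had 0.0707, 0.465 and 0 CPM/kb in young leaves, against 17.9, 7.46 and 12.2 CPM/kb in old leaves (-5.96 ± 0.78, adjusted p = 0.00139). MAM1, the synthase for short side chains, changed less, by -1.03 (adjusted p = 0.00465). IPMI2, a subunit of the isomerase of the same cycle, changed by -2.40, and APK2, which supplies the sulfate donor, by -1.76. The groups of BCAT4, MAM3 and IPMI2 were apart. The regulators MYB28 and MYB29 did not pass the test, with log2 changes of -0.75 (adjusted p = 0.0644) and -0.63 (adjusted p = 0.155). The length and GC adjustment gave 14 lower members. Leaving out replicate 3 of the young leaves gave 6, and leaving out that of the old leaves 3.

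The myrosinases that cleave glucosinolates went the other way. TGG1 (AT5G26000) had 1405, 1585 and 1202 CPM/kb in young leaves, against 400.2, 621.9 and 217.8 CPM/kb in old leaves (1.86 ± 0.25, adjusted p = 0.00151). TGG2 (AT5G25980) had 570.4, 763.4 and 412.1 CPM/kb in young leaves, against 107.8, 259.8 and 56.4 CPM/kb in old leaves (2.24 ± 0.29, adjusted p = 0.00139). Young leaves were above old leaves in every library. They were the 2 higher members of the indole glucosinolate and camalexin list, of which 3 of 22 tested members were lower, among them GSTF9 (-1.01) and IGMT5 (-1.53), and none of these 3 was called with the length and GC adjustment. No member of the list, TGG1 and TGG2 included, was called without replicate 3 of the old leaves.

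Lipid transfer proteins carry lipids in the cell wall, and 3 of their genes in the cuticular wax and cutin list fell in young leaves. LTP4 (AT5G59310) had 1.56, 21.9 and 4.06 CPM/kb in young leaves, against 222.8, 1839 and 389.8 CPM/kb in old leaves (-6.54 ± 0.92, adjusted p = 0.00171). LTP3 (AT5G59320) had 32.9, 94.5 and 62.7 CPM/kb in young leaves, against 1188, 2477 and 1842 CPM/kb in old leaves (-4.88 ± 0.47, adjusted p = 0.000489). LTP2 had 15.0, 14.8 and 27.6 CPM/kb in young leaves, against 157.9, 253.7 and 246.9 CPM/kb in old leaves (-3.54 ± 0.28, adjusted p = 0.000202). Old leaves were higher in every library of all 3 genes. LTP3 and LTP4 are neighbouring, related genes, and reads they share were not counted. CER6 (AT1G68530), the condensing enzyme of wax synthesis, changed by -1.98 (adjusted p = 0.000839). Of the 39 tested members 4 were lower, which were LTP2, LTP3, LTP4 and CER6, so no other lipid transfer gene was called lower. Another 2 members were higher, and the shares over all tested genes were 8.10% lower and 6.81% higher. The list's median of -0.23 was 0.13 when only library size was scaled. The length and GC adjustment gave 6 lower members, and no member was higher without replicate 3 of the old leaves.

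Salicylic acid (SA) and immunity genes showed no common direction, with 2 of 39 tested members higher, 2 lower and a median log2 change of 0.07. WRKY46 (AT2G46400), a factor of SA-dependent defence, had 14.8, 12.3 and 18 CPM/kb in young leaves, against 4.46, 1.14 and 3.73 CPM/kb in old leaves (2.38 ± 0.49, adjusted p = 0.0058). PR2 (AT3G57260), a glucanase induced by SA, had 8.40, 13.3 and 26.4 CPM/kb in young leaves, against 51.7, 49.9 and 60.4 CPM/kb in old leaves (-1.86 ± 0.39, adjusted p = 0.00645). In both genes the groups were apart. EDS1, a hub of immune receptor signalling, changed by 1.81 and was not called with the length and GC adjustment (adjusted p = 0.0107), and AZI1, a lipid transfer-like protein of systemic immunity, changed by -2.65 and was not called with it either (adjusted p = 0.0221). No member was called without replicate 3 of the old leaves.

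The SA genes that the study followed did not pass the test apart from PR2. PR1 had 1.19, 1.35 and 13.9 CPM/kb in young leaves, against 15.0, 3.05 and 32.7 CPM/kb in old leaves (-2.00 ± 0.78, adjusted p = 0.0603). SID2, the isochorismate synthase of SA synthesis, had a log2 change of 0.33 (adjusted p = 0.42) and PBS3, which conjugates isochorismate on the same route, of 0.58 (adjusted p = 0.143). The SA receptor gene NPR1 had a change of 0.21 (adjusted p = 0.478), and the kinase gene SNRK2.8 of -0.81 (adjusted p = 0.189). With the length and GC adjustment SID2 and NPR1 had changes of -0.02 and -0.43.

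Pattern recognition receptors and their partners were higher in young leaves for 3 of 27 tested members, with a median log2 change of 0.84 and a median transcript length of 2774 nt. PEPR1 (AT1G73080), a receptor of Pep danger peptides, had 5.54, 8 and 8.68 CPM/kb in young leaves, against 1.72, 1.61 and 1.45 CPM/kb in old leaves (2.23 ± 0.35, adjusted p = 0.00222), and its groups did not overlap. LYK5, a chitin receptor, changed by 1.32 and MPK11, a kinase induced by bacterial elicitors, by 1.92. After the length and GC adjustment the median was 0.03, and PEPR1 (adjusted p = 0.0458) and LYK5 (adjusted p = 0.121) were not called. Leaving out replicate 3 of the old leaves left no call, and of the young leaves 1.

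Jasmonate genes were lower in young leaves for 7 of 42 tested members and higher for 1, with a median log2 change of -0.55. AOC1 (AT3G25760), an allene oxide cyclase of jasmonate synthesis, had 62.8, 19.6 and 90.9 CPM/kb in young leaves, against 255.7, 149.4 and 301.5 CPM/kb in old leaves (-2.15 ± 0.32, adjusted p = 0.00194), without overlap. AOC2 changed by -1.37. The defensin genes PDF1.2b and PDF1.2c changed by -3.85 and -4.26. PDF1.2c had 0.393, 0.0739 and 3.07 CPM/kb in young leaves, against 5.39, 0.402 and 90.6 CPM/kb in old leaves, so the groups overlapped while each pair was lower in the young leaf. These defensins are close copies of each other, and their shared reads were not counted. Without replicate 3 of the old leaves 1 member was lower.

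The genes with the largest changes included several that were near 0 in one leaf age. AT2G39690, annotated as a MIP1 leucine-zipper protein of unknown function, had 116, 155 and 24 counts in young leaves, against 1, 0 and 0 counts in old leaves, a ratio of 174.6 with an interval of 31.1 to 6919. MLH3, a DNA mismatch repair gene, had 17, 27 and 5 counts in young leaves and 0 in all old leaves, at least 9.67-fold higher against the same floor, and it was not called with the length and GC adjustment (adjusted p = 0.015). AT1G06360, a fatty acid desaturase family gene, had 37.2, 28.2 and 39.8 CPM/kb in young leaves, against 0, 4.61 and 0.124 CPM/kb in old leaves (5.02 ± 1.17, adjusted p = 0.00901).

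In the other direction, GPAT5 (AT3G11430) and FAR5 (AT3G44550), which act in the synthesis of suberin, were not counted in young leaves. GPAT5 had 0, 0 and 0 counts in young leaves, against 11, 4 and 43 counts in old leaves, at least 32.7-fold lower, and its call was lost with the length and GC adjustment (adjusted p = 0.0107). FAR5 had 0, 0 and 0 counts in young leaves, against 20, 7 and 9 counts in old leaves, at least 20.3-fold lower. PYD4 (AT3G08860), named for pyrimidine breakdown, had 0.0923, 0.191 and 0.125 CPM/kb in young leaves, against 9.55, 10.9 and 14 CPM/kb in old leaves (-6.31 ± 0.46, adjusted p = 0.000159). The remaining genes of the 12 largest rises, apart from those above, were AT1G20390, AT5G45670, AT1G26330, ROPGEF6, AT5G55520 and CSLC12, with fitted changes of 5.02 to 6.07. Those of the 12 largest falls were AT3G22560, AT1G54575, AT1G54540, LAC5, CSLG2 and AT3G02480, with changes of -7.07 to -5.68. Of these, ROPGEF6 (adjusted p = 0.015), CSLC12 (adjusted p = 0.0186) and AT3G02480 (adjusted p = 0.0185) were not called with the length and GC adjustment. Fitted values of genes at 0 in a group depend on the prior count.

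The leaf age difference was also read in the ABA-treated leaves, which were sequenced in other libraries. There, 573 genes were higher (3.13% of those tested) and 673 were lower (3.68%) in young than in old leaves. Of the 2728 genes called in mock-treated leaves, 2692 (98.7%) had the same sign after ABA, as had 83.8% of all tested genes. All 12 libraries were fitted together, so the ABA-treated ones also entered the mock-treated calls, through the replicate block and the dispersion. With only the mock-treated libraries, 312 genes were called higher and 562 lower. Same-numbered libraries of different groups deviated together from their group means, with a median correlation of 0.361 over 18 pairs. Both contrasts followed transcript length, with a rho of 0.569 in ABA-treated leaves, and across all tested genes their log2 changes correlated with a Pearson r of 0.813. Among the calls, 373 genes were called higher and 467 lower in both, which is 30.8% of the mock-treated calls and 67.4% of the ABA-treated ones, and 0 were called in opposite directions.

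**Figure D4:**
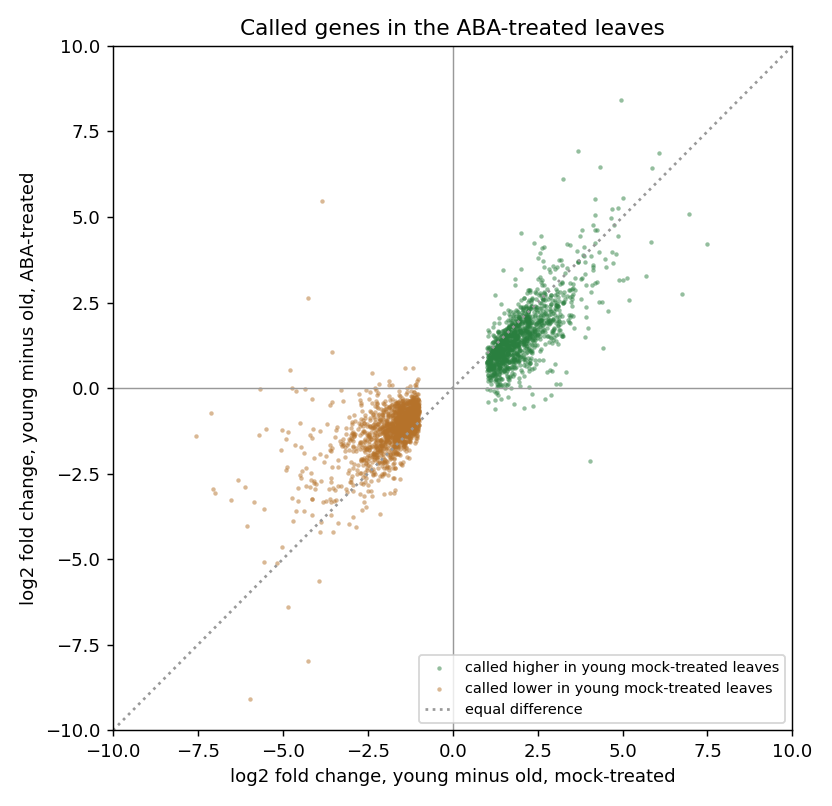
Log2 fold change of young minus old leaves in mock-treated (x axis) and ABA-treated (y axis) libraries for the 2728 genes called in mock-treated leaves, green for higher and brown for lower in young leaves. The dotted line marks equal differences, and 36 genes lie in the quadrants where the sign differs.

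For the lists, 12 replication genes were higher after ABA (median 1.53), and 14 aliphatic glucosinolate genes were lower (median -1.28). Several other lists had fewer calls after ABA, with 4 mitosis genes higher, and 0 senescence, 1 vegetative phase change and 1 remobilisation gene lower. After ABA the stomatal lineage list had 5 higher members and the jasmonate list 7 lower members, the same counts as in mock-treated leaves. The jasmonate calls were not all of the same genes. AOC1 and AOC2 were lower in both, with changes of -2.56 and -1.75 after ABA. PDF1.2b and PDF1.2c, lower in mock-treated leaves, had changes of 5.47 (adjusted p = 0.015) and 2.62 (adjusted p = 0.13) after ABA. NYE2 changed by -3.58 after ABA (adjusted p = 0.00175), SPL4 by -2.74 (adjusted p = 0.00175), TGG1 by 2.28 (adjusted p = 0.00175) and MCM4 by 1.58 (adjusted p = 0.00643). Other genes called in mock-treated leaves were not called after ABA. Among them were PR2 (0.10, adjusted p = 0.86), SWEET13 (-0.13, adjusted p = 0.725), RD26 (-0.38, adjusted p = 0.494) and CYP707A3 (-0.31, adjusted p = 0.661). The ABA response list had 1 lower and 1 higher member after ABA, with a median of -0.30. The test of the difference between the leaf age effects called 0 genes (0% of 18291) by edgeR, with 1358 genes at an unadjusted p below 0.05 and a smallest adjusted p of 0.0793, so no gene was shown to respond to leaf age in mock-treated leaves in particular. That smallest value belonged to LTP2, with log2 changes of -0.40 in ABA-treated and -3.54 in mock-treated leaves.

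Lists that follow harvest and handling were checked as well. Of 21 tested clock genes 0 were higher and 1 was lower (RVE6, -1.33), with a median of 0.12 that was -0.24 with the length and GC adjustment. Of 18 tested genes that respond to cold, wounding and touch, 2 were higher, CYP707A3 and WRKY40 (1.70 ± 0.39, adjusted p = 0.00857), with a median of 0.41. WRKY40, a rapidly induced defence regulator, had 58.8, 59.2 and 136.5 CPM/kb in young leaves, against 20.7, 8.97 and 73.9 CPM/kb in old leaves, and these groups overlapped.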

How the data were processed

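The study isolated RNA from sprayed leaves, made strand-specific libraries from polyadenylated RNA and sequenced them. The submitters' processing notes name CASAVA 1.8.2, cutadapt 1.5, TopHat2 2.0.10 and HTSeq 0.6.1 with the TAIR10 build, and no source used here gives the HTSeq strand option. The authors deposited raw counts per gene for 32678 genes, and 5 HTSeq summary lines (5.97% to 10.3% of reads in mock-treated libraries) were left out. Reads that map to several places were not counted, so paralogs are undercounted. The annotation of TAIR10.1 matched 31912 table entries and gave symbols, lengths and promoters.

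Tested genes averaged 10 or more counts over the 12 libraries. The model had the 4 groups and the replicate number as block, with TMM factors, in edgeR 4.0.16 (R 4.3.3), and groups were compared by quasi-likelihood tests. Groups and pairs followed the labels. The block is part of the study's own model, and same-numbered mock-treated libraries deviated together from their group means (correlations of 0.455, 0.304 and 0.65). Young and old mock-treated libraries with different numbers had correlations of -0.651 to 0.358, so the highest of these exceeded that of pair 2. The rho of the deviations with transcript length ranged from -0.564 to 0.577 in mock-treated libraries. No 2 libraries of a group were copies, as chi-square statistics divided by degrees of freedom were 29.6 or more within groups. DESeq2 1.42.0, limma 3.58.1 with voom, other filters, scalings, thresholds and subsets of libraries, and a spline adjustment on length and GC content (4 degrees of freedom each) were alternatives. The pipeline was tested on simulated data with 200 changed genes.

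Named genes are the 12 largest called rises and falls in all 3 pairs, the 4 members of each list with the smallest p, and 6 genes the study followed. Others, such as MCM2, MCM3, MCM6, MCM7, ICU2, FAS2, FT, RAB18, NAC092, GLK1, GLK2, FLC, MAM1, MYB28, MYB29, SPL3, SPL5, SPL9, SWEET12, SUC2 and AHA3, were chosen after their values were seen. Members and lists were chosen with earlier results of these data known. Replicates share a label only, so p-values measure the spread between these samples. Names of 2 chlorophyll breakdown genes, 1 aliphatic glucosinolate gene and 1 flavonoid gene matched no table entry and were not analysed here.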

Additional observations from a re-analysis of the deposited data

Results flagged for a closer look

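In 12 genes called in mock-treated leaves, all 3 pairs changed one way between young and old mock-treated leaves and all 3 pairs the opposite way in ABA-treated leaves. The differences between the effects, ABA-treated minus mock-treated, were 4.60 for AT1G33055, 5.30 for RAP2.6, 2.82 for HIS1-3, 1.99 for AT3G18773 and 1.25 for UBQ3, which were lower in young mock-treated leaves. They were -2.87 for PP2-B13, -1.89 for AT2G32210, -1.61 for AT3G17170, -1.43 for PUR7, -1.74 for HDA3, -2.28 for CIL and -1.90 for AT5G66960, which were higher. None passed edgeR's test of the difference, where the adjusted p lay between 0.228 (AT1G33055) and 0.449 (RAP2.6), and they are 12 of 2728 called genes. With the length and GC adjustment, RAP2.6 (adjusted p = 0.018), HIS1-3 (adjusted p = 0.0292) and AT3G18773 (adjusted p = 0.0218) were not called. The same held for CIL (adjusted p = 0.092), AT5G66960 (adjusted p = 0.0411) and PUR7 (log2 change 0.89). RAP2.6, an ERF factor that responds to ABA and stress, had changes of 0.52 in ABA-treated and -4.78 in mock-treated leaves. HIS1-3, a drought-induced linker histone, had changes of 0.44 and -2.38 in the same order.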

How the results depend on the processing

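Counts of genes higher and lower (1246 and 1482) changed by more than 1.5 times under these settings. DESeq2 called 2571 higher, voom with q-values 2703 and 2240, an adjusted p below 0.05 with a log2 change beyond 1 called 3050 and 2323 and with no fold limit 3869 and 3662. Fewer were called without the replicate block, which is the test without pairing (23 and 76), with only the mock-treated libraries (312 and 562), with scaling by library size only (601 lower), which moved the median of all genes to 0.39, and with the length and GC adjustment (811 higher). Leaving out a whole replicate gave 0 to 129 higher and 0 to 271 lower. Leaving out 1 mock-treated library gave 36 to 1234 higher and 211 to 1094 lower. The highest of these counts, without replicate 3 of the young leaves, stayed within 1.5 times of the main counts. The lowest came without replicate 3 of the old leaves. There, an arm of 2 libraries shares the spread of the other groups.

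No called gene named here changed direction under any setting. Of those not called, TKL1 (-0.02), GI (-0.05), SID2 (-0.02) and NPR1 (-0.43) turned negative with the length and GC adjustment, and NPR1 also without replicate 3 (-0.16) and without replicate 3 of the young leaves (-0.07), and had 0.42 without replicate 2. The cause was not tested.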

Other observations

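Of 171 tested genes with annotation notes that name a cytosolic ribosomal protein, 3 were higher and 1 was lower in young leaves. Organelle ribosomal proteins seen among them were removed, and others may remain. The median log2 change of these 171 genes was 0.25, and -0.59 in ABA-treated leaves. It was 0.76 with 37 higher after the length and GC adjustment (beside 4.43% of all tested genes). Their median transcript length was 895 nt. The TGGGCC word (site II) was in 64.9% of their promoters and AAACCCTA (telo box) in 47.4%, against 15.5% and 6.22% of all promoters. PSRP2, a plastid ribosomal protein, had 218.6, 246.2 and 141.2 CPM/kb in young leaves, against 82.5, 102.9 and 53.2 CPM/kb in old leaves (1.35 ± 0.22, adjusted p = 0.00244).

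Of 39 tested auxin and gibberellin genes 1 was higher and 2 were lower. The gibberellin receptor gene GID1B had 0.951, 1.25 and 1.87 CPM/kb in young leaves, against 5.17, 4.48 and 5.43 CPM/kb in old leaves (-1.98 ± 0.33, adjusted p = 0.00282), and GID1C changed by -1.56. YUC5, an auxin synthesis gene, had 35, 57 and 101 counts in young leaves, against 1, 3 and 3 counts in old leaves (4.04 ± 0.63, adjusted p = 0.00325), and a change of -2.12 in ABA-treated leaves (adjusted p = 0.273). Among flavonoid genes 1 of 24 was higher (PAL2, 1.26) and 3 were lower (TT5, MYB75 and LBD37, -1.79, -2.28 and -1.49). With the length and GC adjustment PAL2 (adjusted p = 0.142) and MYB75 (adjusted p = 0.033) were not called. Among expansins and xyloglucan enzymes 1 of 39 was lower (EXPA9, -1.49).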
